A study of Mus musculus with 32 samples.

Results

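Cytosolic RNA of mouse embryonic fibroblasts (MEFs) under prolonged endoplasmic reticulum (ER) stress with PERK blocked late was compared with cytosolic RNA of unstressed MEFs. The libraries were chosen by their titles: 4 libraries Tg16+PERKi_In and 4 libraries Ctrl_In, 8 of the 32 libraries of the series. The PERKi group had thapsigargin for 16 h and an inhibitor of PERK for the last 4 h, and the control group had 0 h of thapsigargin and no inhibitor. Thapsigargin inhibits the pump that fills the ER with calcium, so that calcium-dependent protein folding there fails. A further 4 cytosolic libraries, from cells with thapsigargin for 16 h and no inhibitor, are set beside both groups as the same stress without the block. Both stress groups had thapsigargin for 16 h, and no library here was taken when the inhibitor was added. Words such as stayed, fell further, returned or went from 16 h therefore compare groups and not times. The question the design poses is which changes of prolonged stress remain, and which pass to the far side of control, when PERK is silenced late. The inhibitor's name, its dose, the dose of thapsigargin and whether the MEFs were primary or an established line were not given in the sources used here. Cells with the inhibitor and no thapsigargin were not analysed here, so against control the parts of the stress and of the inhibitor cannot be told apart. Nothing in the labels makes the 4 replicates of a group separate cultures, and p-values here reflect the variation among libraries, which may be technical.

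Membrane proteins of the ER named PERK, IRE1 and ATF6 sense the stress. PERK (gene Eif2ak3) phosphorylates the initiation factor eIF2, which lowers most translation and raises that of the transcription factor ATF4. ATF4, and CHOP (Ddit3) after it, turn on genes of amino acid supply, tRNA charging and stress feedback, among them GADD34 (Ppp1r15a), which directs the dephosphorylation of eIF2. IRE1 (Ern1) splices the mRNA of XBP1, and ATF6 is cut free from the Golgi membrane. XBP1 and ATF6 turn on chaperones, folding enzymes and the machinery that moves proteins into, through and out of the ER. IRE1 and ATF6 do not need the kinase activity of PERK to sense the stress. Their own mRNA levels nonetheless differed between 16 h with and without the inhibitor, as given below. Whether their arms depended on PERK in these cells was not tested.

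The control libraries held 28.28 to 31.98 M counts and the PERKi libraries 33.54 to 34.91 M, and no library stood apart in depth. Control library 1 differed most within its group: chi-square per degree of freedom over genes was 31.8 to 73.9 against the other control libraries, which gave 2.29 to 13.5 among themselves. Without it 4737 genes were called higher and 4377 lower, and no named gene lost its call. Levels are given as CPM, read counts divided by TMM-adjusted library sizes, and errors of levels are SD over 4 libraries. Changes are log2 ratios with an approximate standard error (SE). It was worked back from the test as the absolute log2 change over the square root of the F statistic. With edgeR's quasi-likelihood test (Benjamini-Hochberg adjusted p under 0.05, here "called"), 9059 of 12366 genes, 73.3%, were called different between the PERKi and control groups. Of all genes tested 38.1% were called higher and 35.2% lower, 7.08% were raised at least 2-fold and 11.8% lowered at least 2-fold, and the 4 values of each group did not overlap for 64.4%. A count for a gene list therefore has to be read against a background in which most genes moved. The median log2 change of all genes was 0.04. Where a gene is named that the selection rule (given under the processing) does not cover, it was chosen after its values were seen.

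Of 12 fibroblast markers all were tested and 11 were called lower than control, with a summed level of 9235 to 12789 CPM in control and 4514 to 5195 CPM in PERKi libraries. For the other types, levels were summed over the markers that passed the count filter only. The 5 of 9 neural markers tested summed to 160.3 to 166 CPM in control and 74.4 to 82.1 CPM with the inhibitor. Of these 5, 3 were called lower and 2 were not called, so RNA of this list was present in both groups. Rbfox3, Gfap, Sox10 and Olig2 were not tested, the last 2 with 0 counts in all 8 libraries. The 1 of 8 muscle markers tested reached at most 11.4 CPM in any of the 8 libraries (Myog and Myf5, untested, at 0). Sums reached 7.71 CPM for 3 of 9 leukocyte markers (Ptprc and Cd3e, untested, at 0) and 1.97 for 3 of 8 endothelial markers. The 1 of 7 pluripotency markers tested reached 3.50 CPM (Zfp42, untested, at 0) and the 1 of 9 epithelial markers 0.891. Markers that did not pass the filter are not in these levels. In bulk RNA fewer cells of a type and less of an RNA per cell cannot be told apart.

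Promoter stretches are printed for a few ATF4 targets and ER chaperones, so that motifs bound by ATF4 and ATF6 can be seen beside the values. ATF4 with a C/EBP partner binds the CARE motif, searched here as TGATGNAA, and ATF6 binds the ER stress element (ERSE), searched as CCAAT and CCACG with 9 bases between them, each on both strands in RefSeq windows of 300 bases (250 before and 50 from the gene start on, GRCm38.p6). CARE lay in 3.97% of all 32851 windows and ERSE in 0.119%. Of the tested genes 9485 of 12366 had a window, of which 2.87% held CARE and 0.179% ERSE. The stretches below lie upstream of 3 ATF4 targets that ended below control and 3 chaperones that stayed above it, with the motif in capitals and the gene's strand written 5′ to 3′.
Chac1: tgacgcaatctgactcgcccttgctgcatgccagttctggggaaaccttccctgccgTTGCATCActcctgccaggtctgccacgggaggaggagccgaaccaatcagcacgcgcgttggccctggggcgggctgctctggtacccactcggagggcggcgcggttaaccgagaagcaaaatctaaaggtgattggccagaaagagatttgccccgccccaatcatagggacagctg
Slc7a11: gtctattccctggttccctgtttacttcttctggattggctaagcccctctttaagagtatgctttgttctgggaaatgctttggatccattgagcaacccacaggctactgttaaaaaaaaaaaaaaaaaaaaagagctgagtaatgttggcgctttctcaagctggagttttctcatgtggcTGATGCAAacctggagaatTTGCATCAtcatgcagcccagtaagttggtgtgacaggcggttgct
Atf3: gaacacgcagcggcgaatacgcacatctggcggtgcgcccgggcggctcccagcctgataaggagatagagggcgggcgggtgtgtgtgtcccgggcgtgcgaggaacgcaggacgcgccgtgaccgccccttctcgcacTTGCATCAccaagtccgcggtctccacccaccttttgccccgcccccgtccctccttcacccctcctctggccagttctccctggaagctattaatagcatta
Hsp90b1: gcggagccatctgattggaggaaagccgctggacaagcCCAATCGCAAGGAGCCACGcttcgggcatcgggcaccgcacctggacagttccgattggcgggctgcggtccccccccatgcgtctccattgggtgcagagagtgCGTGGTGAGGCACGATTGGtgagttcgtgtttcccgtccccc
Creld2: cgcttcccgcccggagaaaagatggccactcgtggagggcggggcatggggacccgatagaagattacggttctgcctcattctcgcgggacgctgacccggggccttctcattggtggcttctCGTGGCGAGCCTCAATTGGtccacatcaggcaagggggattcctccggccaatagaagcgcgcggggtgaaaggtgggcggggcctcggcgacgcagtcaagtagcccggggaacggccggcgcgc
Calr: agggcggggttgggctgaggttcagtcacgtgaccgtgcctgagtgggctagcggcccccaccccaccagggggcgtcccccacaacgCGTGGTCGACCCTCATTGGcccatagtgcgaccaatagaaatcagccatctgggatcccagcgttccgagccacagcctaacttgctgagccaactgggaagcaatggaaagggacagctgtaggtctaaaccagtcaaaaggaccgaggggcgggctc
Chac1 (chr2:119350992-119351228, plus strand) held 1 CARE match, Slc7a11 (chr3:50443615-50443863, minus strand) 2, and Atf3 (chr1:191183341-191183583, minus strand) 1. Hsp90b1 (chr10:86705510-86705694, minus strand) held 2 ERSE matches, Creld2 (chr15:88819396-88819645, plus strand) 1 and Calr (chr8:84846935-84847181, minus strand) 1. The stretches end short of any exon annotated in GENCODE vM21. Hspa5 also has an ERSE match, 65 to 47 bases before its start.

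Among ATF4 and CHOP targets with a window, CARE lay in 10 of the 18 that were called lower than control and in 1 of the 8 others. Among cytosolic tRNA synthetases it lay in 5 of the 6 with a window that were lower and in 0 of the 3 that were higher. ERSE lay in 6 of the 15 ER chaperones with a window that were called higher and in 0 of the 2 that were lower, and CARE in 1 of those 15. In ER-associated degradation Syvn1, a member called higher, held ERSE, and the 2 members with CARE, Herpud1 and Faf2, were both lower. These matches are descriptions of letters in the windows, not of binding.

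Of the 14 genes of the stress panel 5 were called higher than control and 8 lower, while at 16 h without the inhibitor 12 were higher and 1 lower, where 37.9% and 39.4% of all genes were called higher and lower. The 5 that stayed above control were Hspa5, Dnajb9, Ddit3, Eif2ak3 and Xbp1, and 6 passed from above control to below it: Atf4, Asns, Atf3, Trib3, Chac1 and Herpud1. This panel was chosen with its behaviour in these samples known.

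Hspa5 (BiP, the main ER chaperone; chr2:34772090-34776529 in GRCm38.p6) was at 1103, 928, 974 and 1002 CPM in control libraries 1 to 4 and at 6548, 7152, 6434 and 7042 CPM in PERKi libraries 1 to 4. Every PERKi library lay far above every control library. The log2 change was 2.76 ± 0.06 (SE), a 6.78-fold rise (adjusted p = 4.00e-16, edgeR), against 4.06 at 16 h without the inhibitor. Dnajb9 (ERdj4, a BiP cochaperone turned on by XBP1) was at 72.5, 58.0, 63.8 and 63.8 CPM in control and 218, 231, 209.9 and 239.8 CPM with the inhibitor, again without overlap, a log2 rise of 1.80 ± 0.08. Both were lower than at 16 h without the inhibitor, where their means were 16716 ± 1123 and 481 ± 45.1 CPM (n = 4). Ddit3 (CHOP) was at 13.0, 19.7, 15.6 and 16.4 CPM in control and 55.8, 50.1, 49.6 and 47.4 CPM with the inhibitor. The groups did not overlap and the rise was 3.14-fold (log2 1.65 ± 0.10), beside a level of 526 ± 49.9 CPM at 16 h without the inhibitor. Ddit3 was thus the ATF4 target of the panel that stayed above control.

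Eif2ak3, the mRNA of PERK itself, was at 67.6, 64.6, 69.5 and 65.1 CPM in control and 98.2, 110.3, 105.6 and 105.7 CPM with the inhibitor. All PERKi libraries were higher, and the log2 change of 0.65 ± 0.04 was close to the 0.62 at 16 h without the inhibitor, from which it was not called different (adjusted p = 0.53). Xbp1 was at 179, 152, 159 and 161 CPM in control and 177, 185, 178 and 180.2 CPM with the inhibitor, where control library 1 fell within the PERKi range. Its log2 rise of 0.15 ± 0.05 was called in the main test (adjusted p = 0.0167) and was not called without control library 2 (adjusted p = 0.0589) or with DESeq2 (adjusted p = 0.075), whereas at 16 h it was 1.08. Gene-level counts do not separate spliced from unspliced Xbp1.

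Atf4 and 4 of its targets in the panel, Atf3, Chac1, Trib3 and Asns, fell below their unstressed level. Atf4 was at 513, 531, 547 and 544 CPM in control and 327, 319, 323 and 322 CPM with the inhibitor. No library overlapped, and the log2 change was -0.73 ± 0.03 against 0.87 at 16 h. Atf3, a transcription repressor induced by ATF4, went from 28.5, 25.9, 25.8 and 26.6 CPM in control to 6.59, 6.92, 5.53 and 7.01 CPM, a 4.10-fold fall in a gene that stood at 349 ± 10.4 CPM at 16 h. Chac1, which degrades glutathione, was at 23.3, 39.2, 34.3 and 35.5 CPM in control and 13.6, 11.7, 12.7 and 12.01 CPM with the inhibitor. Control library 1 was the lowest of its group and still above all PERKi libraries, and the log2 change was -1.40 ± 0.14 against 3.51 at 16 h. Trib3, a pseudokinase that inhibits ATF4 and CHOP, was at 37.8, 66.0, 58.4 and 53.5 CPM in control and 13.0, 10.2, 13.8 and 11.5 CPM with the inhibitor. Control library 1 was again lowest without overlap, and the log2 change was -2.15 ± 0.16 against 1.82. Asns, asparagine synthetase, had a smaller fall, -0.38 ± 0.06 on the log2 scale, and Herpud1, a scaffold of ER-associated degradation, one of -0.26 ± 0.04 beside a 16 h change of 3.31.

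The cystine transporter gene Slc7a11 behaved differently: it was at 312, 252, 273 and 276 CPM in control, 311, 258, 246 and 266 CPM at 16 h and 27.0, 33.1, 26.8 and 32.4 CPM with the inhibitor. The 16 h libraries lay within or beside the control range, and only with the inhibitor was the gene called different from control, a 9.34-fold fall (log2 -3.22 ± 0.09, adjusted p = 1.23e-14, edgeR's quasi-likelihood test). Of the eIF2 phosphatase subunits, Ppp1r15b (CReP, the constitutive one) was at 559, 473, 491 and 489 CPM in control and 86.8, 92.9, 89.2 and 89.7 CPM with the inhibitor. This gene was lower than control at 16 h without the inhibitor (-1.18) and lower still with it, by 2.49 on the log2 scale against control. Ppp1r15a (GADD34, the inducible one) was at 65.4, 77.9, 73.9 and 75.9 CPM in control and 75.0, 74.0, 72.7 and 65.7 CPM with the inhibitor. Those groups overlapped, and the change of -0.03 ± 0.07 was not called (adjusted p = 0.728), beside a level of 855 ± 43.2 CPM at 16 h without the inhibitor.

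**Figure D1:**
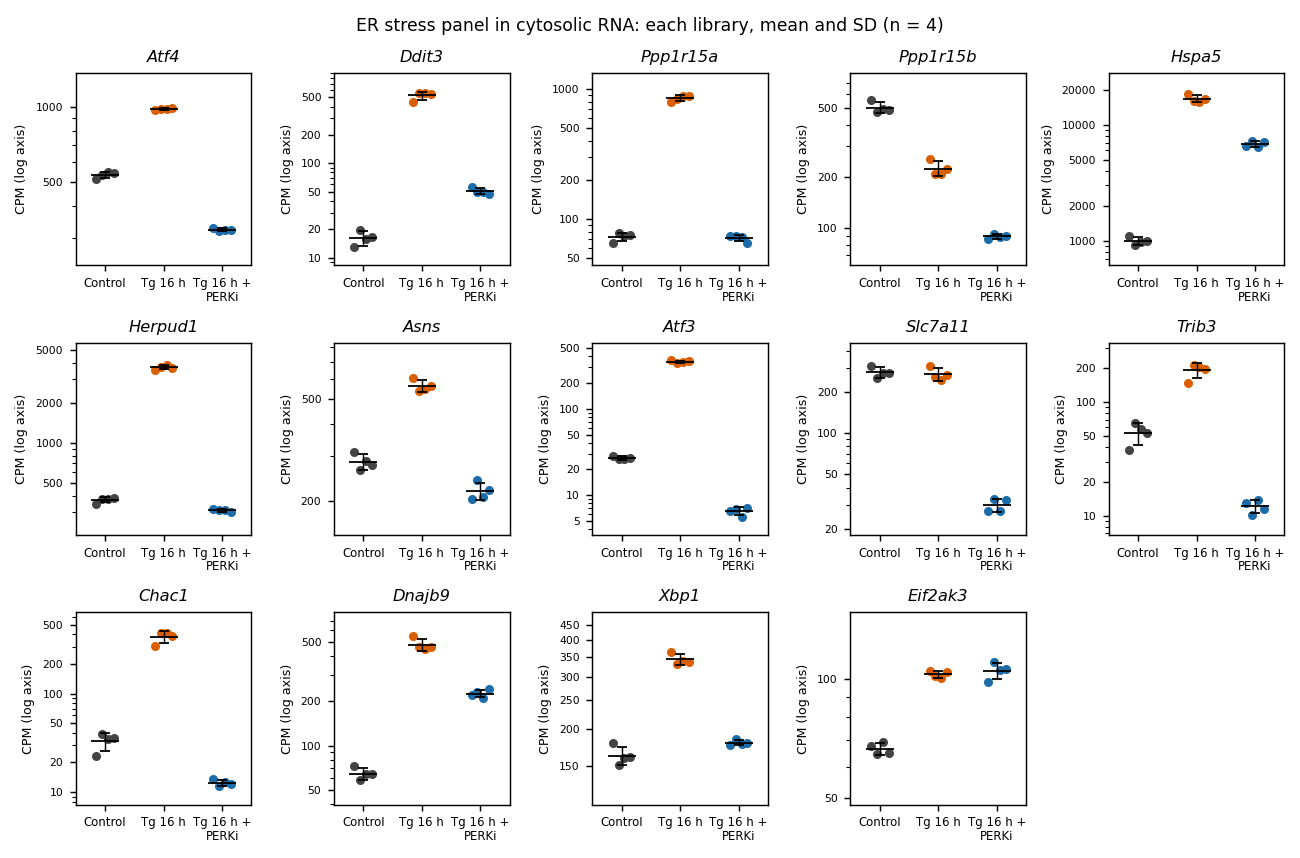
Level of the 14 panel genes in each cytosolic library (CPM, log axis, 1 scale per gene) for control, thapsigargin for 16 h, and 16 h with the PERK inhibitor for the last 4 h; points are libraries and bars show the mean and SD (n = 4). Hspa5, Dnajb9 and Ddit3 sit between the other groups with the inhibitor, Atf3, Chac1 and Trib3 sit below control, and Slc7a11 differs from control in the PERKi group only.

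The wider set of ATF4 and CHOP targets followed the panel, which supplied several of its members. Here 7 of 32 tested members were called higher and 19 lower, with a median log2 change of -0.54 against 1.24 at 16 h without the inhibitor, and 15 members were called higher at 16 h and lower than control with the inhibitor. Fgf21, a liver and stress hormone of energy balance, was at 3.87, 6.73, 4.95 and 6.10 CPM in control and 0.300, 0.383, 0.516 and 0.731 CPM with the inhibitor. No library overlapped and the log2 change was -3.48 ± 0.27 against 1.85 at 16 h. Stc2, a secreted glycoprotein linked to calcium, changed by -1.83 ± 0.10 (1.84 at 16 h). Gdf15, a stress hormone that limits food intake, was low, at 0.351, 1.52, 0.750 and 0.493 CPM in control and 0.210, 0.0589, 0.0859 and 0.263 CPM with the inhibitor, with control library 2 highest. Its change of -2.31 ± 0.75 (adjusted p = 0.0117) became -1.77 (adjusted p = 0.0549) without that library. Vldlr, a lipoprotein receptor, fell by 2.47 on the log2 scale, Gpt2, mitochondrial alanine transaminase, by 1.60, and Sesn2, an inhibitor of mTORC1, by 1.15. Besides Ddit3 the members still above control were Ddit4 (REDD1, another mTORC1 inhibitor, 1.55 ± 0.14), Slc3a2 (1.33 ± 0.05), Atf5 (0.96 ± 0.10), Pycr1, Cth and Tnfrsf10b. Atf5 was 0.23 at 16 h, so its value with the inhibitor was the higher one.

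In 3 lists of amino acid supply more members were lower than higher. Their counts stand beside 38.1% of all genes called higher and 35.2% called lower. For cytosolic tRNA synthetases, which charge tRNAs, 5 of 20 tested members were called higher and 10 lower, with a median log2 change of -0.33 against 0.95 at 16 h without the inhibitor, and 9 went from above control to below. Cars was at 76.1, 76.5, 76.6 and 75.4 CPM in control and 22.3, 23.1, 22.4 and 22.9 CPM with the inhibitor, without overlap, a log2 change of -1.75 ± 0.04 against 0.69 at 16 h. Mars (-1.49 ± 0.05) was lower in both states and Yars (-0.99 ± 0.04) was above control at 16 h (0.64), whereas Wars, the tryptophan enzyme, stayed higher (0.999 ± 0.07, from 2.55). For amino acid transporters 2 of 17 tested members were called higher and 12 lower, with a median log2 change of -0.84 against 0.29 at 16 h without the inhibitor. Slc7a1, the arginine carrier CAT1, was at 484, 485, 486 and 481 CPM in control and 111, 122.2, 110.4 and 113.1 CPM with the inhibitor. The groups were far apart, with a log2 change of -2.08 ± 0.04 against 0.41 at 16 h. Slc1a4, a neutral amino acid carrier, changed by -1.88 ± 0.04 (0.29 at 16 h), while Slc1a3, a glutamate carrier, was as low at 16 h (-3.45) as with the inhibitor (-3.40 ± 0.07). For serine and one-carbon metabolism 4 of 13 tested members were called higher and 7 lower, with a median log2 change of -0.20 against 0.76 at 16 h without the inhibitor. Shmt1 (-0.83 ± 0.06), Psat1 (-0.83 ± 0.06) and Mthfd2 (-0.75 ± 0.03) fell.

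Many ER chaperones were above control with the inhibitor. In this list 17 of 26 tested members were called higher and 4 lower, 9 at least 2-fold higher, with a median log2 change of 0.60 against 0.49 at 16 h without the inhibitor. The summed level of the list was nonetheless lower than at 16 h. It was 10823 to 11034 CPM in control, 47089 to 52754 CPM at 16 h and 30821 to 32681 CPM with the inhibitor. Of the higher members 1 was called below control at 16 h. Sdf2l1, a BiP partner that keeps unfolded proteins soluble, was at 27.6, 30.3, 30.2 and 29.8 CPM in control and 322, 295, 317 and 306 CPM with the inhibitor, a rise of 10.5-fold (log2 3.39 ± 0.06). Manf, a secreted ER stress protein, was at 230.3, 194, 204 and 199.6 CPM in control and 2031, 1989.7, 2019 and 2054 CPM with the inhibitor, a rise of 9.77-fold. In both the PERKi libraries lay far above control, and at 16 h the log2 changes were 3.41 and 2.85. Creld2 (2.66 ± 0.05), Hyou1, the nucleotide exchange factor of BiP (2.29 ± 0.05), Hsp90b1, known as GRP94 (2.21 ± 0.08), and the calcium-binding lectin Calr (2.07 ± 0.05) were also high. Creld2, Hsp90b1 and Calr are the chaperones whose upstream stretches are printed above. Dnajc3 (p58IPK), a cochaperone that also inhibits PERK, rose by 1.76 ± 0.07, near its 16 h change of 2.01.

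Genes of other ER functions moved up with the chaperones to different degrees. For translocation into the ER and N-glycosylation 28 of 33 tested members were called higher and 2 lower, 11 of them at least 2-fold higher, with a median log2 change of 0.70 against 0.56 at 16 h without the inhibitor. Sec11c, a signal peptidase subunit, was at 28.2, 26.4, 25.6 and 25.2 CPM in control and 95.8, 91.8, 86.4 and 97.0 CPM with the inhibitor, a log2 rise of 1.82 ± 0.05 without overlap. Srp14 of the signal recognition particle rose by 1.12 ± 0.04, Spcs2 of the signal peptidase by 1.33 ± 0.06 and Sec61b of the translocon by 2.02 ± 0.17. For ER to Golgi transport 25 of 36 tested members were called higher and 3 lower, with a median log2 change of 0.40 against 0.36 at 16 h without the inhibitor, and the members with the smallest p were the COPII coat gene Sec23b (1.69 ± 0.05), the fusion protein gene Bet1 (1.63 ± 0.06) and the cargo receptor gene Surf4 (0.84 ± 0.04). In ER-associated degradation 14 of 22 tested members were called higher and 6 lower, with a median log2 change of 0.46 against 0.64 at 16 h without the inhibitor: Vimp (1.66 ± 0.04), Derl1 (1.08 ± 0.03) and Edem2 (1.27 ± 0.06) of the retrotranslocation and lectin steps rose. Among protein disulfide isomerases and oxidases 10 of 20 tested members were called higher and 6 lower, where 38.1% and 35.2% of all genes were. Pdia6 (1.85 ± 0.04) and Txndc11 (1.44 ± 0.04) rose while Qsox2, a Golgi oxidase, fell (-1.300 ± 0.05).

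Of the upstream regulators of the IRE1 and ATF6 arms 5 of 14 tested members were called higher and 3 lower. Over all genes 38.1% were called higher and 35.2% lower, so these counts do not set the list apart. Its median log2 change was 0.0044 against 0.61 at 16 h without the inhibitor. With a filter of a mean of at least 1 CPM 6 rather than 3 were lower. Edem1, an XBP1 target, was the member with the clearest rise besides Dnajb9 (1.33 ± 0.07, above its 16 h value of 0.69), and Mbtps1, the protease that starts the cutting of ATF6, was lower (-0.57 ± 0.05). Ern1, the gene of IRE1, was -0.34 ± 0.06 with the inhibitor and 0.93 at 16 h. Atf6 was at 136.5, 118.1, 121.05 and 129 CPM in control and 120.8, 135, 119.3 and 123 CPM with the inhibitor, groups that overlapped, beside 395 ± 28.6 CPM at 16 h. For eIF2, its kinases, phosphatases and exchange factor, 8 of 19 tested members were called higher and 4 lower, beside the same 38.1% and 35.2% of all genes. Eif2ak2, the kinase PKR, rose (0.83 ± 0.08), as did the heme-regulated kinase gene Eif2ak1 (0.47 ± 0.05), while Eif2ak4, the kinase GCN2, was 0.10 ± 0.05 (adjusted p = 0.06). In ER calcium handling 6 of 23 tested members were called higher and 11 lower, again beside 38.1% and 35.2% of all genes. Atp2a3, the SERCA3 form of the pump that thapsigargin inhibits, was at 0.914, 0.792, 0.750 and 0.956 CPM in control and 17.0, 14.5, 16.01 and 12.7 CPM with the inhibitor, 17.6-fold above control, less than the 35.8-fold at 16 h. The widely expressed pump gene Atp2a2 was -0.11 ± 0.05 (adjusted p = 0.0702), and the ER calcium sensor gene Stim2 stayed low (-1.91 ± 0.05).

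**Figure D2:**
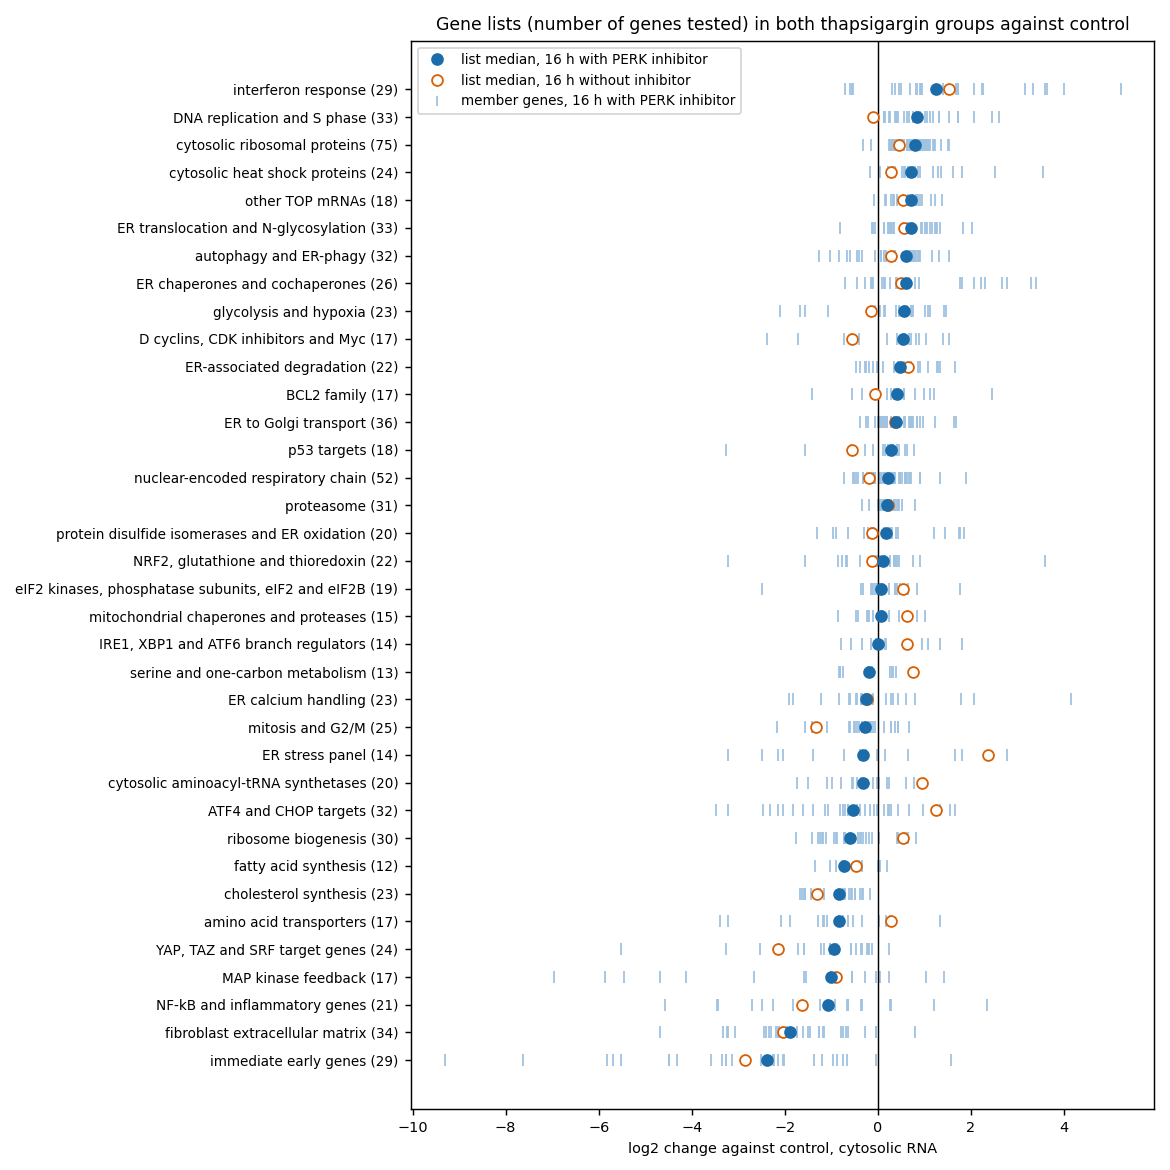
Median log2 change against control (horizontal axis) of the tested members of each gene list (rows), with the PERK inhibitor and at 16 h without it. ATF4 and CHOP targets lie at -0.54 with the inhibitor and 1.24 without, ribosome biogenesis at -0.60 and 0.55, and ER chaperones at 0.60 and 0.49.

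Most mRNAs of growth factor and adhesion responses were low in both stress groups. Of the immediate early genes, which serum and MAP kinases switch on within minutes, 1 of 29 tested members were called higher and 27 lower, 23 of them at least 2-fold lower, with a median log2 change of -2.38 against -2.86 at 16 h without the inhibitor. Egr1 (chr18:34861207-34864956) was at 657, 753, 727 and 721 CPM in control and 11.7, 11.1, 14.4 and 13.2 CPM with the inhibitor, and Fos at 19.6, 28.7, 26.4 and 23.8 CPM and 0.389, 0.618, 0.602 and 0.292 CPM. All PERKi libraries were far below control in both, with log2 changes of -5.83 ± 0.09 and -5.68 ± 0.18, and at 16 h they were -4.02 and -5.63. Egr3 (-9.31) and Egr2 (-7.62) fell furthest, to means of 0.520 ± 0.188 and 0.169 ± 0.0669 CPM, 71 and 23 raw counts over 4 libraries, so the size of their folds is less certain. The same limit holds for Fos, at most 0.618 CPM with the inhibitor. Jund alone of the tested immediate early genes was called higher (1.56 ± 0.34). Atf3, Myc and Klf4 belong to this list too: Klf4 was 1.17 at 16 h and -2.02 ± 0.10 with the inhibitor.

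Among feedback inhibitors of the MAP kinase pathway 2 of 17 tested members were called higher and 12 lower, with a median log2 change of -1.01 against -0.90 at 16 h without the inhibitor. Dusp6, the phosphatase of ERK, was at 123, 115.5, 120.8 and 119.9 CPM in control, 8.19, 9.73, 9.04 and 8.67 CPM at 16 h and 2.10, 2.21, 2.23 and 1.61 CPM with the inhibitor. The 3 groups were ordered without overlap, and the fall from control was 5.87 on the log2 scale. Etv5, an ETS factor induced by ERK, was at 8.36, 7.16, 7.79 and 8.26 CPM in control, 28.0, 28.2, 30.4 and 30.2 CPM at 16 h and 2.34, 2.59, 2.03 and 2.72 CPM with the inhibitor. It was above control in all 16 h libraries and below in all PERKi libraries (log2 -1.70 ± 0.09 against 1.89). Spry4, a receptor tyrosine kinase antagonist of low abundance, had 138 raw counts over the control libraries and 3 over the PERKi libraries, beside a log2 change of 0.95 at 16 h. Errfi1 (-4.12 ± 0.07) and Dusp2 (-6.95 ± 0.15) were low in both states. Dusp2 had 54 raw counts over the PERKi libraries, so the size of its fold is less certain. Dusp1, a phosphatase of p38, JNK and ERK, went the other way: 29.4, 29.3, 29.9 and 31.2 CPM in control, 10.1, 10.98, 11.2 and 11.5 CPM at 16 h and 82.6, 81.2, 81.0 and 77.7 CPM with the inhibitor. All PERKi libraries were above control and all 16 h libraries below it (log2 1.43 ± 0.04 against -1.45). In polysome RNA of the same samples, the mRNAs with more than 4 ribosomes, Dusp1 was -0.75 against control (adjusted p = 2.18e-11), and the difference between the 2 readouts was not tested.

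Of the targets of YAP, TAZ and SRF, which respond to the cytoskeleton, 19 of 24 tested members were called lower and 1 higher, with a median log2 change of -0.94 against -2.14 at 16 h without the inhibitor. Ctgf was at 527, 476, 484 and 497 CPM in control and 10.6, 11.3, 10.9 and 10.1 CPM with the inhibitor, and Cyr61, the related matricellular gene, changed by -3.27 ± 0.04. All PERKi libraries lay below all control libraries for Ctgf, whose log2 change of -5.53 ± 0.07 compares with -6.46 at 16 h. For the extracellular matrix of fibroblasts 30 of 34 tested members were lower and 0 higher, 26 of them at least 2-fold lower, with a median log2 change of -1.88 against -2.04 at 16 h without the inhibitor. Mmp2, a matrix protease, was at 798, 819, 824 and 823 CPM in control and 193, 198, 199.8 and 188 CPM with the inhibitor, without overlap (log2 -2.07 ± 0.04). Thbs1 (-2.12 ± 0.04, from -5.51) and the protease inhibitor gene Timp3 (-3.07 ± 0.06, from -3.44) were low as well. Fn1, fibronectin, was -0.10 at 16 h and -1.45 ± 0.04 with the inhibitor. The fibroblast marker list, whose collagens overlap with this one, fell with it as given above, and its part in these results was not tested.

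Most mRNAs of sterol synthesis were low in both stress states: 20 of 23 tested members were called lower with the inhibitor and 0 higher, 11 at least 2-fold lower, with a median log2 change of -0.83 against -1.31 at 16 h without the inhibitor. Hsd17b7 (-1.67 ± 0.06) and Insig1, which retains the sterol sensor in the ER (-1.45 ± 0.05), fell. Of the fatty acid genes 9 of 12 were lower and 1 higher, among them Elovl6 (-1.36 ± 0.06), Fads2 (-1.03 ± 0.04) and Scd1 (-0.90 ± 0.04). Dgat2, which makes triglyceride, was at 48.1, 67.3, 62.9 and 61.9 CPM in control, 54.5, 67.4, 72.7 and 65.9 CPM at 16 h and 3.38, 2.62, 3.90 and 3.45 CPM with the inhibitor. At 16 h it was not called against control, and the 18.0-fold fall was found only in the group with thapsigargin and the inhibitor. Among NF-kB and inflammatory genes 17 of 21 were lower and 2 higher, with the chemokine gene Cxcl1 at -4.59 ± 0.08, the cytokine gene Lif at -3.46 ± 0.08 and the macrophage growth factor gene Csf1 at -2.25 ± 0.04. Il6 was 0.33 at 16 h and -1.83 ± 0.39 with the inhibitor.

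Ribosome biogenesis and ribosomal protein genes moved apart in cytosolic RNA. For biogenesis factors 5 of 30 tested members were called higher and 22 lower, with a median log2 change of -0.60 against 0.55 at 16 h without the inhibitor, and 20 members went from above control at 16 h to below it. Polr1b, a core subunit of RNA polymerase I, was at 74.8, 69.9, 76.8 and 74.2 CPM in control, 72.3, 67.3, 68.3 and 72.9 CPM at 16 h and 21.6, 23.02, 22.0 and 21.1 CPM with the inhibitor. The 16 h libraries were near control and the PERKi libraries far below (log2 -1.75 ± 0.05 against -0.07). Wdr43 (-1.42 ± 0.05 against 0.65) and Nop56 (-1.19 ± 0.05 against -0.08), of the small subunit processome and the box C/D particles, fell as well. Myc, whose product drives these genes, was at 277, 379.7, 341 and 334 CPM in control, 278, 378, 357 and 326 CPM at 16 h and 66.6, 56.8, 68.1 and 63.7 CPM with the inhibitor, a 5.22-fold fall (log2 -2.38 ± 0.11, adjusted p = 3.94e-12, edgeR). Control and 16 h libraries lay together and the PERKi libraries apart. Whether Myc had a part in the values of the biogenesis factors was not tested. By contrast, of ribosomal protein genes 72 of 75 were called higher and 1 lower, with a median log2 change of 0.78 against 0.45 at 16 h without the inhibitor, and 46 lay further from control than at 16 h. Rpl14 rose by 0.93 ± 0.04, Rps7 by 1.19 ± 0.05 and Rps6 by 0.97 ± 0.04, though processed pseudogenes of this family share reads with them, so single values are uncertain. Other mRNAs with a terminal oligopyrimidine (TOP) start, a tract through which mTOR controls translation, gave 17 higher and 0 lower of 18, among them Tpt1 (1.24 ± 0.05), Eef1b2 (0.91 ± 0.04) and Eif3h (0.85 ± 0.05). In polysome RNA of the same samples, where 36.8% of genes were called higher and 40.3% lower, these lists lay on the other side of control: of the ribosomal protein genes 0 were called higher and 52 of 75 lower, with a median log2 change of -0.41, and of the other TOP mRNAs 2 were higher and 12 of 18 lower, with a median of -0.50. Rpl14 was -0.62 there, Rps7 -0.48, Rps6 -0.83, Tpt1 -0.53, Eef1b2 -0.996 and Eif3h -0.71, all called. With libraries scaled by their totals only, 8 ribosomal protein genes were higher and 37 lower in polysome RNA, with a median of -0.17 where that of all genes was 0.21. The difference between the readouts was not tested.

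Genes of DNA replication rose above control, with 31 of 33 tested members called higher and 0 lower, 12 at least 2-fold, and a median log2 change of 0.83 against -0.10 at 16 h without the inhibitor. Of these, 15 were called lower than control at 16 h without the inhibitor. Cdc6, which loads the replicative helicase, was at 16.7, 13.9, 13.7 and 12.5 CPM in control, 26.5, 22.3, 23.5 and 24.4 CPM at 16 h and 81.7, 91.5, 87.9 and 84.1 CPM with the inhibitor. The groups were ordered without overlap, and the rise was 6.09-fold. Rpa2, of the single-strand binding complex, rose by 1.72 ± 0.05 and the helicase gene Cdc45 by 1.32 ± 0.04 (-0.09 at 16 h). Among mitotic genes 6 of 25 tested members were called higher and 14 lower, beside 38.1% and 35.2% of all genes. Their median log2 change was -0.27 against -1.33 at 16 h without the inhibitor. Ccnb2 was at 128.1, 123.9, 126.6 and 123.9 CPM in control, 11.7, 8.51, 10.2 and 8.90 CPM at 16 h and 28.2, 28.0, 26.8 and 28.2 CPM with the inhibitor, still below control in every library (log2 -2.18 ± 0.07 against -3.68). Ccnb1 (-1.56 ± 0.06) and the centromere histone gene Cenpa (-1.09 ± 0.04) were also low, while 6 members, Aurkb among them (0.66 ± 0.05 against -1.33), lay above control with the inhibitor and below it at 16 h. Of the entry regulators, Ccnd1 stayed low (-1.71 ± 0.05, -2.01 at 16 h), Cdkn1b, the CDK inhibitor p27, was higher (0.88 ± 0.05), and Mxd3, of the MYC antagonist family, went from -2.17 at 16 h to 1.40 ± 0.21.

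Cytosolic heat shock proteins, the chaperones of the HSF1 response, gave 21 higher and 1 lower of 24 tested members, with a median log2 change of 0.70 against 0.28 at 16 h without the inhibitor. Hspa8 was at 1287, 1128, 1186 and 1179 CPM in control, 1005, 926, 947 and 980.4 CPM at 16 h and 3545, 3813, 3576 and 3598 CPM with the inhibitor. It was below control at 16 h and 3.04-fold above it with the inhibitor (log2 1.60 ± 0.04). Dnajb1, a cochaperone, had the same course (0.81 ± 0.04 against -0.57) and Hsph1 rose by 1.29 ± 0.07. Hspa1b was at 1.26, 1.78, 1.304 and 1.23 CPM in control and 18.6, 11.7, 18.4 and 16.3 CPM with the inhibitor (log2 3.54 ± 0.27), but it shares reads with its near-identical copy Hspa1a (11 raw counts over the control and 73 over the PERKi libraries), so how the reads divide between them is uncertain. Of hypoxia and glycolysis genes more were higher than lower: 13 of 23 tested members were called higher and 4 lower, beside 38.1% and 35.2% of all genes. Their median log2 change was 0.57 against -0.16 at 16 h without the inhibitor. At least 2-fold higher were 5 members and at least 2-fold lower 4. The oxygen sensor gene Egln1 rose by 1.41 ± 0.05, whereas Pfkfb3 fell by 2.10 and Car9 by 1.56. Vegfa, an angiogenic factor, was 0.12 at 16 h and -1.68 ± 0.08 with the inhibitor.

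The counts of the lists that follow stand beside 38.1% of all genes called higher and 35.2% called lower. Of the BCL2 family 12 of 17 tested members were called higher and 3 lower. Bnip3, a mitophagy receptor, was at 62.2, 49.1, 53.5 and 52.3 CPM in control, 89.6, 78.4, 80.0 and 81.0 CPM at 16 h and 285, 301, 283 and 313 CPM with the inhibitor. It was highest in the PERKi libraries (log2 2.45 ± 0.07), Bcl2l11, the death activator BIM, rose by 1.12 ± 0.07, and Bcl2, the survival gene, fell by 1.41. Of p53 targets 10 of 18 tested members were called higher and 4 lower, with Btg2 (-3.27 ± 0.07) and Fas (-1.56 ± 0.12) low in both stress states and Zmat3 higher (0.63 ± 0.06). In autophagy 20 of 32 tested members were called higher and 8 lower: Atg13 of the initiation complex rose (1.54 ± 0.05), and the lysosomal membrane gene Lamp1 (-1.26 ± 0.03) and the ER-phagy receptor gene Fam134c (-1.03 ± 0.04) fell. In the NRF2, glutathione and thioredoxin list 10 of 22 tested members were called higher and 7 lower, near those shares. Txnip, an inhibitor of thioredoxin and of glucose uptake, was at 12.6, 12.6, 13.1 and 14.1 CPM in control and 152, 163, 155 and 159 CPM with the inhibitor, without overlap (log2 3.59 ± 0.06, 4.21 at 16 h), and heme oxygenase gene Hmox1 went from 0.73 at 16 h to -1.57 ± 0.07. For the proteasome 18 of 31 tested members were called higher and 2 lower and the median was 0.20, with Psmb2 (0.80 ± 0.04), Psma5 (0.43 ± 0.06) and Psmd8 (0.37 ± 0.04) raised. For the respiratory chain 26 of 52 tested members were called higher and 10 lower, Ndufs3 (0.62 ± 0.05) and Sdhd (0.47 ± 0.03) up and Atp5b (-0.73 ± 0.04) down. For mitochondrial chaperones and proteases 5 of 15 tested members were called higher and 7 lower, Hspe1 (1.02 ± 0.05) and Grpel1 (0.64 ± 0.04) up and Htra2 (-0.85 ± 0.07) down.

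Most mRNAs of the interferon response stayed high, with 25 of 29 tested members called higher than control and 4 lower, 15 at least 2-fold higher, and a median log2 change of 1.24 against 1.53 at 16 h without the inhibitor. Usp18, which silences the interferon receptor, was at 0.738, 0.726, 0.554 and 0.586 CPM in control, 27.3, 21.6, 27.3 and 27.0 CPM at 16 h and 7.91, 8.71, 7.31 and 8.21 CPM with the inhibitor. It was lower with the inhibitor than at 16 h and still 12.3-fold above control. Mx2, of the antiviral Mx family and a transcribed pseudogene in the RefSeq annotation, rose by 4.01 ± 0.13 and Stat2, of the interferon transcription complex, by 1.73 ± 0.06. Oasl1, Ifih1, Ifitm3 and Gbp2 were the 4 members called lower, at -0.70, -0.61, -0.56 and -0.53.

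The 8 highest log2 changes came from genes that control libraries hardly held, so levels are given without folds. Saa3, an acute phase apolipoprotein, was at 0.0703, 0.0660, 0.0326 and 0.0925 CPM in control and 11.4, 10.04, 10.1 and 9.76 CPM with the inhibitor (8 and 1409 raw counts over the 4 libraries of each group). Ifi44, an interferon-induced gene, was at 0.668, 0.264, 0.652 and 0.339 CPM in control and 17.4, 19.1, 16.1 and 18.8 CPM, and B4galnt2, a glycosyltransferase gene, at 0.211, 0.132, 0.196 and 0.0617 CPM in control and 5.90, 6.83, 6.39 and 6.08 CPM. All PERKi libraries were above all control libraries. The others were Sspo, Ostn, Car6, Mlip and Taf7l, with PERKi means of 46.5 ± 7.97, 9.47 ± 0.843, 105.6 ± 6.84, 5.57 ± 0.513 and 8.77 ± 0.558 CPM and control means of 0.482, 0.122, 1.96, 0.179 and 0.289 CPM. Ostn encodes the secreted peptide osteocrin and Car6 a secreted carbonic anhydrase. Besides Egr3, Egr2, Dusp2, Dusp6, Egr1 and Fos, the 8 lowest held Esm1, a secreted endothelial proteoglycan, at 18.0, 16.1, 16.003 and 17.4 CPM in control and 0.210, 0.0589, 0.115 and 0.0585 CPM, and Id1, an inhibitor of bHLH factors, at 24.7, 34.3, 30.1 and 27.0 CPM in control and 0.210, 0.442, 0.258 and 0.322 CPM. Both fell without overlap, with log2 changes of -7.21 and -6.54. Their levels with the inhibitor were near the floor, at most 0.442 CPM, so the size of these folds is less certain.

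Each gene was also placed by its calls against control in both stress states and by the call between them, comparisons that share libraries, so the counts are descriptions. Between the inhibitor group and 16 h without the inhibitor 74.7% of genes were called. Of all genes tested, 2451 (19.8%) were still changed in the same direction and nearer to control than at 16 h, 1862 (15.1%) were still changed and not called against 16 h, and 1225 (9.91%) were changed further. A return to a value not called against control was found for 2022 (16.4%). Opposite sides of control held 1770 (14.3%), 869 of them below with the inhibitor and 901 above, and 63 were at least 2-fold away on both sides. In the PERKi group only, 1751 (14.2%) were called against control, 1127 above and 624 below. A further 229 (1.85%) were called at 16 h only, without a call between the stress states. Of 1033 genes (8.35%) at least 2-fold above control at 16 h, the median log2 change went from 1.42 to 0.70: 383 were still at least 2-fold above, 312 were called above by less, 201 were not called and the others were called below control, 37 of them at least 2-fold. Of 2171 genes (17.6%) at least 2-fold below control at 16 h, the median went from -1.79 to -0.91: 1000 were still at least 2-fold below, 651 called below by less, 369 not called and 151 called above, 26 of them at least 2-fold. These genes were chosen by their value at 16 h, and how much of the movement towards control comes with that choice was not tested.

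**Figure D3:**
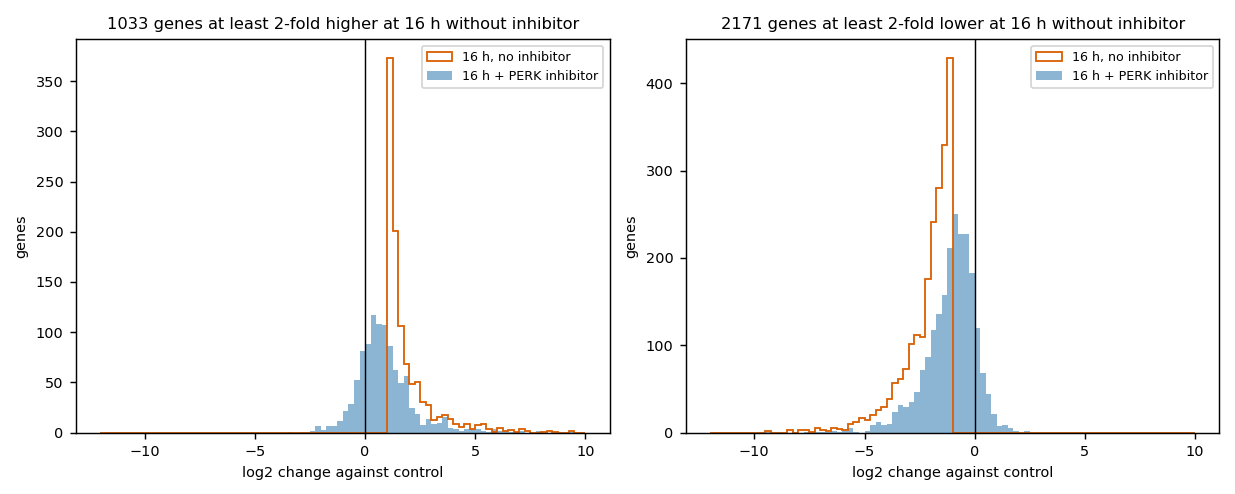
Log2 change against control (horizontal axis) of genes called at least 2-fold higher or lower at 16 h, at 16 h and with the inhibitor (number of genes, vertical axis). The median of the 1033 higher genes moved from 1.42 to 0.70 and that of the 2171 lower genes from -1.79 to -0.91, with tails on the far side of 0 in both sets.

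Among genes that crossed control upward, Mpp2, a membrane scaffold, was at 4.39, 7.03, 5.74 and 6.17 CPM in control, 2.25, 1.59, 1.98 and 1.66 CPM at 16 h and 28.4, 27.2, 29.0 and 26.8 CPM with the inhibitor. The control libraries lay between the others without overlap (log2 2.25 ± 0.11 against -1.65). Pthlh, a secreted hormone related to parathyroid hormone, went from -2.78 at 16 h to 1.61 ± 0.15, Fam111a, a protease of the replication fork, from -1.33 to 1.64 ± 0.08, and Dpf1, a subunit of a chromatin remodeller, from -1.303 to 1.48 ± 0.13, beside Dusp1 and Mxd3 above. Downward, Dhrs9, a retinol dehydrogenase, was at 15.8, 11.8, 11.96 and 12.7 CPM in control, 68.8, 53.2, 52.7 and 55.4 CPM at 16 h and 2.58, 2.503, 2.92 and 2.19 CPM with the inhibitor. Its 16 h libraries were the highest and its PERKi libraries the lowest (log2 -2.35 ± 0.13 against 2.14), as for Fgf21, Stc2, Etv5, Atf3 and Trib3.

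**Figure D4:**
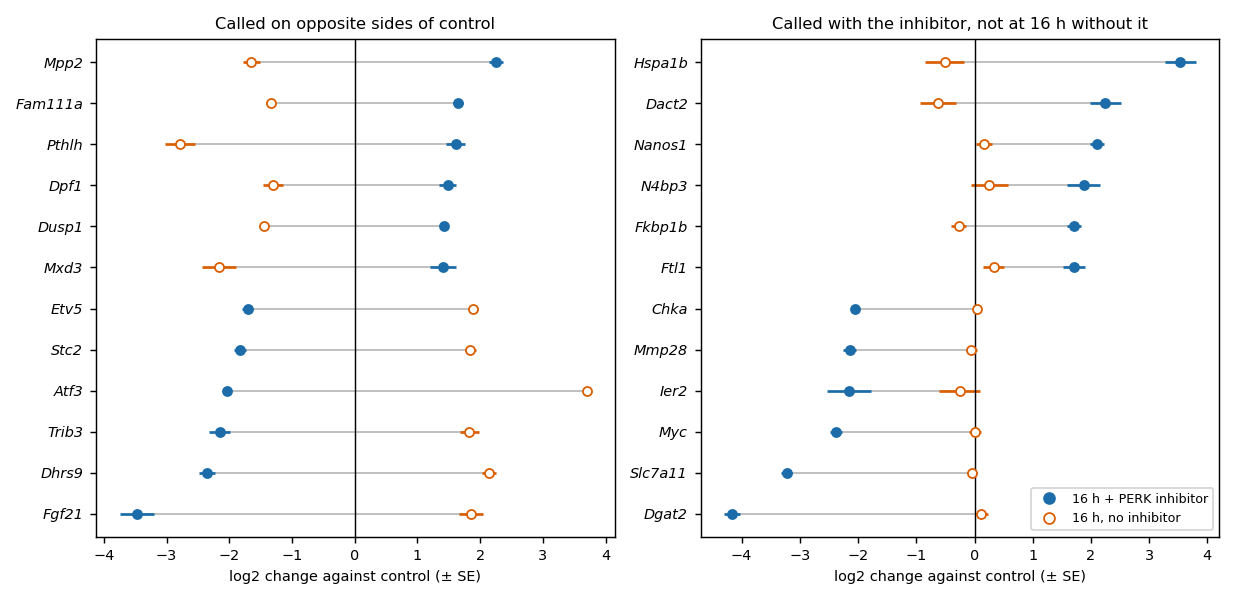
Log2 change against control, with SE, of the 6 genes in each direction that lay furthest on opposite sides of control, and of the 6 in each direction called in the PERKi group only. Filled circles are 16 h with the PERK inhibitor and open circles 16 h without it. Fgf21, Atf3 and Trib3 cross from above to below control, Mpp2 and Dusp1 from below to above, and Slc7a11 and Myc leave 0 in the PERKi group only.

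Called against control in the PERKi group only, and against 16 h too, were Hspa1b and others above control: Dact2, a modulator of WNT signals, was at 1.44, 3.43, 2.90 and 2.22 CPM in control and 13.6, 9.72, 13.7 and 10.6 CPM with the inhibitor, and the RNA-binding gene Nanos1 rose by 2.10 ± 0.13. N4bp3 (1.88 ± 0.28), Fkbp1b, a regulator of calcium release channels (1.71 ± 0.12), and Ftl1, ferritin light chain (1.71 ± 0.19), completed them, with pseudogenes of Ftl1 as a limit on its value. Below control, beside Dgat2, Slc7a11 and Myc, were Ier2, an immediate early gene (-2.16 ± 0.38), the matrix protease gene Mmp28 (-2.15 ± 0.10) and choline kinase gene Chka, of phosphatidylcholine synthesis. Chka was at 57.0, 55.5, 56.1 and 59.4 CPM in control, 61.4, 56.8, 58.6 and 58.9 CPM at 16 h and 13.3, 13.98, 13.4 and 13.9 CPM with the inhibitor. Only the PERKi libraries stood apart (log2 -2.06 ± 0.04).

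Polysome RNA of the same samples was a second readout of the genes named by level of change. Of 12065 genes tested in it, 77.1% were called against control. Hspa5 was 2.88 there, Dnajb9 1.99 and Ddit3 1.52 on the log2 scale, and below control were Slc7a11 at -2.86, Atf3 at -2.79, Trib3 at -3.20 and Myc at -3.37. Ppp1r15b was -3.30 and Atf4 -0.93. Of 51 genes of the panel, the extremes, those that crossed control and those called in the PERKi group only, 50 were called in cytosolic RNA, 49 of these in polysome RNA too and 48 in the same direction, Dusp1 being on the other side. Over all genes named in the text 171 were called in cytosolic RNA, 168 of these in polysome RNA too and 159 in the same direction. Most of these genes were picked by their cytosolic change in the same samples. The share in the same direction over all genes is not given here, so these counts have no background to be read against. The 9 on opposite sides were Dusp1, Aurkb, Ifih1 and the ribosomal protein and TOP genes Rpl14, Rps7, Rps6, Tpt1, Eef1b2 and Eif3h.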

How the data were processed

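Cytosolic RNA was sequenced from TruSeq libraries, per the labels' protocols. The deposited values are raw counts, not normalized, for 20234 gene symbols in 32 libraries, and columns were matched to samples by the names in the sample descriptions. The authors aligned reads with HISAT to mm10 and used DESeq2 1.9.23, per the submitters' processing notes. How reads were counted, with which strand setting and annotation, is not given in the sources used here, and overlapping and near-identical genes are therefore uncertain.

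Counts were fitted with edgeR 4.0.16 (limma 3.58.1, R 4.3.3) over the 16 cytosolic libraries in 4 groups, thapsigargin for 1 h included to share the estimate of spread (12 residual degrees of freedom). Genes passed filterByExpr (minimum count 10, minimum total 15), TMM factors scaled the libraries, and the quasi-likelihood test was adjusted by Benjamini-Hochberg over 12366 genes with a threshold of 0.05. Every change is relative to the rest of its library. Polysome RNA (12065 genes) was fitted the same way. The fit was also run on counts simulated from its own dispersions, with few genes changed. Such a run cannot show how the test or the scaling behaves where most genes move, as here. DESeq2 1.42.0 and limma-voom served as alternatives.

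Named were the 14 panel genes, the 8 highest and 8 lowest changes, the 6 in each direction furthest on opposite sides of control, the 6 in each direction called in the PERKi group only and against 16 h (levels of at least 5 CPM, libraries not overlapping), and up to 3 members of each list with the smallest p. The comparison, members, lists and rules were chosen with earlier results of these data known. Motifs were searched in RefSeq promoter windows, gene positions come from RefSeq GRCm38.p6, and pseudocounts were not added to levels.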

Additional observations from a re-analysis of the deposited data

Results flagged for a closer look

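For the genes named above, the 4 control values and the 4 PERKi values were each searched for a value far from the others (gap over range above Dixon's 95% critical value for 4 values). Of 350 such groups 21 held one, while chance gives about 1 in 20. Control library 1 was the low value in 8: Csf1 at 1267 (nearest 1361), Fads2 at 284 (nearest 294), Herpud1 at 349 (nearest 379.8), Mars at 138.5 (nearest 147), Pdia6 at 579.8 (nearest 611), Rps7 at 948 (nearest 1032), Slc3a2 at 502 (nearest 564) and Txndc11 at 72.8 (nearest 76.2), all in CPM. PERKi library 2 was the high value in 5: Faf2 at 219 (nearest 207), Gpt2 at 210.1 (nearest 189.6), Mx2 at 17.2 (nearest 14.2), Sec23b at 108 (nearest 101.4) and Zmat3 at 74.8 (nearest 70.1) CPM.

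The others were spread over 5 libraries. Ccnb2 was low in PERKi library 3 at 26.8 CPM (nearest 28.0) and Hspa1a was high in control library 4 at 0.247 CPM (nearest 0.0351). Hspa1b was high in control library 2 at 1.78 CPM (nearest 1.304) and Mmp28 was high in control library 2 at 13.96 CPM (nearest 11.8). Ndufs3 was low in PERKi library 1 at 52.5 CPM (nearest 53.4) and Psmb2 was high in control library 4 at 87.6 CPM (nearest 81.3). Spry4 was high in PERKi library 3 at 0.0859 CPM (nearest 0) and Yars was low in control library 3 at 131.5 CPM (nearest 136.4). None of these values lay among those of the other group, so the order of the groups did not rest on them.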

How the results depend on the processing

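The comparison was refitted with RLE size factors, library totals only, DESeq2, limma-voom, no low count filter, a mean of at least 1 CPM, the replicate block, the 8 compared libraries alone, and without each replicate of the 3 groups. Of the counts of called and classed genes, 1 moved by more than 1.5 times: with the mean of at least 1 CPM, 546 genes rather than 876 were at least 2-fold higher. This filter also moved values of single genes: the log2 change of Xbp1 went from 0.146 to 0.049 and that of Gdf15 from -2.31 to -2.40. How far the lower count came from the genes left out or from the scaling was not tested. Leaving out 1 library at a time gave 4501 to 4856 genes higher, 4196 to 4479 lower and 1594 to 1782 on opposite sides of control. With library totals only, polysome RNA gave 6019 genes higher and 3554 lower in place of 4442 and 4858, and the median of all genes there moved from -0.03 to 0.21. Its list counts and medians were added after seeing the data, and with library totals the medians of ribosomal protein and TOP mRNAs were -0.17 and -0.26. Of 191 genes followed over 20 settings none changed direction past the threshold. Xbp1 lost its call under 5 alternatives (log2 change 0.05 to 0.11) and Gdf15 lost it without control library 2. Vwf, Atp2a2 and Eif2ak4 gained a call under some. Of 1720 list counts 26 moved by over 1.5 times, and 1 of these by more than 2 genes, the lower members of the IRE1, XBP1 and ATF6 list (3 to 6 with a mean of at least 1 CPM).

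The replicate numbers of the titles did not pair the groups: the correlation of deviations of same-numbered control and PERKi libraries was -0.41, -0.50, 0.14 and -0.09. With the replicate block 4656 genes were higher and 4297 lower, 876 and 1451 at least 2-fold, 1729 lay on opposite sides of control, 2384 were nearer, 1877 not called against 16 h, 1187 further, 2030 not called against control and 1776 called in the PERKi group only. In polysome RNA the block gave 4396 higher and 4782 lower.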
